A study of Mus musculus with 6 samples.

Results

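Transcripts of acrosome and sperm-egg interaction genes were followed in adult mouse testis with and without a DREAM transgene. The set holds 35 genes chosen by function, with earlier results of these data known. They range from proteases stored in the acrosome to proteins of gamete fusion. Of these, 33 were measured by 47 probe sets that carry 1 of the genes alone, out of 18161 genes measured in all, and Tmem95 and Pmis2 were not matched to a probe set. Where a gene has several probe sets, its value below is that of the probe set with the highest mean over all 6 arrays. Freshly dissected testes of adult mice on a C57BL/6 x CBA hybrid background gave the RNA, 3 arrays for wild type and 3 for mice with the constitutively active DREAM mutant. The promoter that drives the transgene, the number of lines and the exact ages are not given in the sources used here. The comparison asks whether the transcripts of this sperm function differ when an active form of DREAM is present.

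The acrosome is a vesicle that round spermatids build from the Golgi over the front of the nucleus. In the female tract its contents are released by a calcium-triggered exocytosis, which exposes enzymes and binding proteins used to pass the cumulus and the zona pellucida. Fusion follows at the equatorial segment, where IZUMO1 on sperm binds JUNO on the egg with the help of several further membrane proteins. Most of these genes are transcribed in spermatocytes and round spermatids and many are translated later. DREAM is the product of Kcnip3 and has the further names KChIP3 and calsenilin. When free of calcium it represses transcription from DNA elements with the core GTCA and is known to interact with the cAMP-responsive factors CREB and CREM. CREM drives many spermatid genes through the cAMP response element TGACGTCA.

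The tissue label was matched by its markers. The 6 elongating spermatid markers, protamines among them, read between 13.0 and 14.12 and the 6 round spermatid markers between 10.05 and 13.95 (log2 intensity), with none of the 12 past the test between genotypes. Wild type replicate 2 stood apart from the other arrays on the first principal component (42.2, the others between -23.3 and 5.27). Kcnip3 read 7.33, 7.11 and 7.18 in wild type and 7.15, 7.30 and 7.36 in transgenic testis, with overlapping groups (log2 difference 0.06, SE 0.10, limma adjusted p = 0.974). Whether its probe set detects the transgene is not known, so it does not check the genotype labels. RNA integrity was read from control probe sets at both ends of a transcript. For Gapdh the 3' reading exceeded the 5' reading by 0.11 ± 0.05 on wild-type and 0.27 ± 0.06 on transgenic arrays (log2 ± SD, n = 3 each; two-sided exact permutation p = 0.1, the smallest that 3 against 3 arrays allow). For beta-actin the excess was 0.47 ± 0.05 and 0.50 ± 0.03 (exact permutation p = 0.7). The part of RNA integrity in the values below was not tested. A fit with the Gapdh difference as a covariate is given, but that difference was higher on every transgenic array than on any wild-type array.

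No member gene passed the test between genotypes. With limma and a Benjamini-Hochberg adjustment over 45037 probe sets, 0 of 33 genes and 0 of 47 probe sets were called at a threshold of 0.05, where 0.617% of all genes and 0.444% of all probe sets were. At an unadjusted limma p under 0.05 there were 2 of the 33 genes, or 6.06%, against 7.49% of all genes, so the members' share was near the background. The differences ran from -0.28 for Izumo1 to 0.21 for Dcst2 (transgenic minus wild type, log2 intensity). The 95% interval of each of the 33 differences lay within 0.5 on the log2 scale, or 1.41-fold, in either direction, and the outermost bounds were -0.49 and 0.48. In 11 genes the interval also lay within 0.25. These are intervals of single genes, not joint ones, and they refer to array intensities, which compress ratios. In whole testis, fewer cells of a type and less RNA per cell cannot be told apart.

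**Figure D1:**
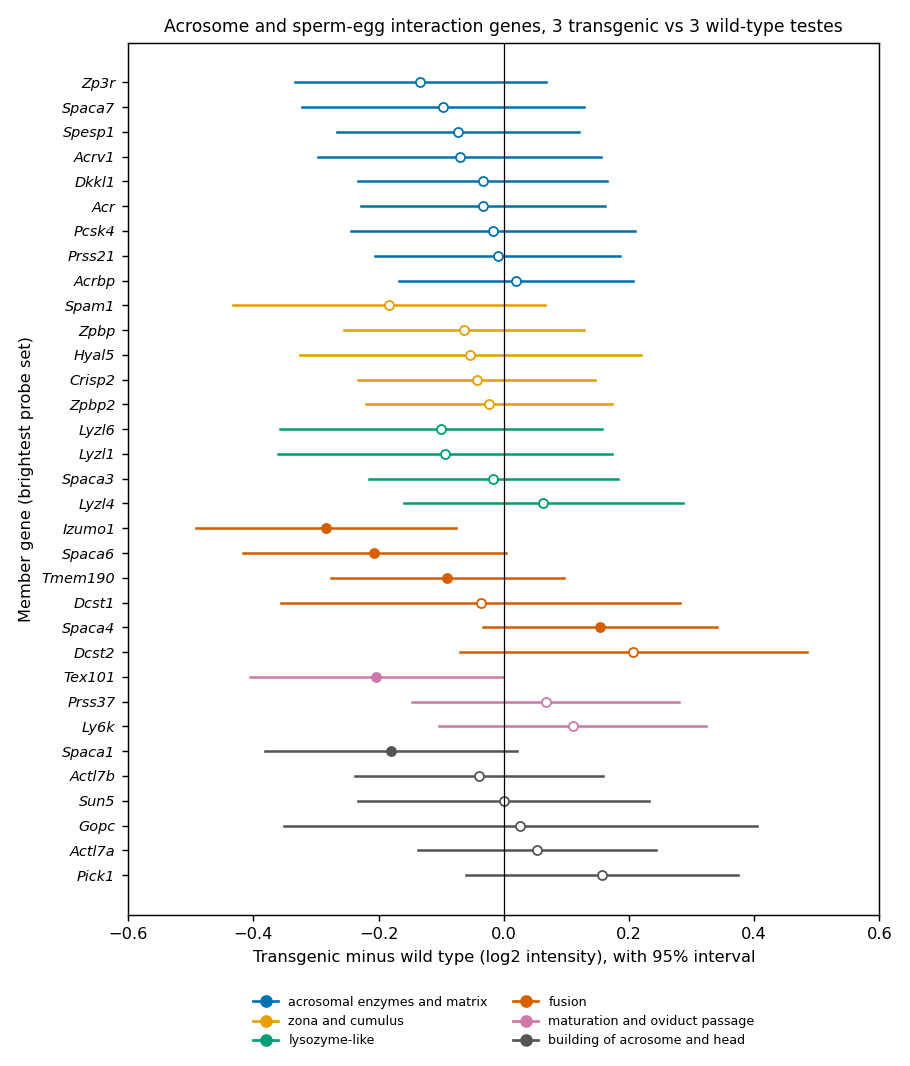
Log2 difference, transgenic minus wild type, with its 95% interval from limma (x axis) for each of the 33 measured member genes (y axis), coloured by role; filled points mark the 6 genes whose 3 transgenic and 3 wild-type arrays did not overlap. All intervals end between -0.49 and 0.48, and only those of Izumo1 and Tex101 leave out 0.

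In 23 of the 33 genes the difference was below 0, in 9 above and in Sun5 at 0, with a median of -0.04. Over all 18161 genes 42.1% were below 0 and the median was 0.02. The median deviation of the members on an array had a within-group SD of 0.03 over 3 arrays. The count below 0 rested in part on 1 array, and 17 of the 33 were below 0 without transgenic replicate 1.

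The groups did not overlap in 6 of the 33 genes, or 18.2%, against 12.5% of all genes. Izumo1, Tex101, Spaca6, Spaca1 and Tmem190 were lower in every transgenic array, 5 of 33 or 15.2% against 5.64% of all genes. Spaca4 was higher in every transgenic array, 1 of 33 against 6.84% of all genes. None of the 6 passed the adjusted test. The sequences before the start sites of Izumo1, Tex101 and Spaca1 are printed because these are the members of this kind whose window lies clear of other annotated genes. They are the 250 bases before the start (RefSeq, GRCm38.p6), written 5′ to 3′ on the strand of the gene, with capitals for each GTCA on either strand (TGAC when read on the printed strand).
Izumo1, chr7:45621561-45621810, plus strand: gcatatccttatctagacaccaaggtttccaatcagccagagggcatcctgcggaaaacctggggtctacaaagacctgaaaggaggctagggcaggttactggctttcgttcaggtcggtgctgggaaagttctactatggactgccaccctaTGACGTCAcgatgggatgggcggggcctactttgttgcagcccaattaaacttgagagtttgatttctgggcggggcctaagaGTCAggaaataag
Tex101, chr7:24672051-24672300, minus strand: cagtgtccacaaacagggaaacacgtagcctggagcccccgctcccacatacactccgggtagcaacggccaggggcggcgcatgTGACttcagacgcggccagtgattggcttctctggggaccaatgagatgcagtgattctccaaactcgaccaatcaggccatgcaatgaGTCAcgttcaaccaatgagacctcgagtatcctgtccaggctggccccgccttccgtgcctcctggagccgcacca
Spaca1, chr4:34050068-34050317, minus strand: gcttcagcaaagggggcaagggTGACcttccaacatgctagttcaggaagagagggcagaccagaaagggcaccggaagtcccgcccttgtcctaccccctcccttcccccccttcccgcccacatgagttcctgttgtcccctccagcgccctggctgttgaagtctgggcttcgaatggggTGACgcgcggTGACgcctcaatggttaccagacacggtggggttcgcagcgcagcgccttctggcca

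Windows were found for 31 of the 35 members. Izumo1 was the single member gene whose window holds the full element TGACGTCA, which begins 96 bases before the start and contains 2 of the 3 GTCA cores of that window, 1 on each strand. The full element was present in 1.77% of 27025 genes with a window. Its half-site TGACG, counted on both strands and inside the full element too, was present in 8 of the 31 members (Acrbp, Gopc, Izumo1, Lyzl4, Spaca1, Spaca3, Tmem95 and Zpbp2), or 25.8%, against 19.8% of all genes. The core GTCA on either strand was present in 26 of the 31, or 83.9%, against 82.5% of all genes. So short a run is found in most windows of this length. A match is a run of letters and not a shown binding site.

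Among the genes of gamete fusion, Izumo1 had the smallest p of all members. It encodes the sperm protein that binds JUNO on the egg. It read 10.98, 10.84 and 10.88 in the wild-type arrays and 10.52, 10.69 and 10.64 in the transgenic arrays. All 3 transgenic values lay below all 3 wild-type values, by at least 0.15 on the log2 scale. The means were 10.90 ± 0.07 and 10.62 ± 0.09 (SD, n = 3 per group), a log2 difference of -0.28 (SE 0.09, 95% interval -0.49 to -0.08, limma adjusted p = 0.476). Over the 14 alternatives the difference ran from -0.46 to -0.24 and the limma adjusted p from 0.139 to 0.974. As the groups did not overlap, leaving out 1 array could not turn the sign. Changes of filter or variance model left the difference at -0.28, so the steady sign is no further support.

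Spaca6, a membrane protein needed for fusion, read 8.93, 8.88 and 9.0 in wild type and 8.62, 8.82 and 8.75 in transgenic testis with its brightest probe set. The groups did not overlap, and the log2 difference was -0.21 (SE 0.09, limma adjusted p = 0.752). Its 2 dimmer probe sets read 0.02 and 0.11 (limma adjusted p = 0.993 and 0.959), and the probe sets of this gene thus differ in sign. Tmem190, a protein of the acrosomal membrane, read 9.79, 9.81 and 9.74 in wild type and 9.70, 9.69 and 9.68 in transgenic testis. The groups were apart by only 0.04, and the log2 difference was -0.09 (SE 0.08, limma adjusted p = 0.942).

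Spaca4, a GPI-anchored sperm protein of zona binding, was the single member with non-overlapping groups in the other direction. It read 10.43, 10.43 and 10.40 in wild type and 10.53, 10.61 and 10.58 in transgenic testis. The spread within each group was small, with SDs of 0.02 and 0.04, and the log2 difference was 0.15 (SE 0.08, 95% interval -0.03 to 0.34, limma adjusted p = 0.830). Izumo1 and Spaca4 lie in the same stretch of chromosome 7, with 10 protein-coding genes between them. Of the other members whose groups did not overlap, Tex101 and Tmem190 also lie on chromosome 7, Spaca6 on 17 and Spaca1 on 4. Dkkl1 is on chromosome 7 too, with overlapping groups and a difference of -0.03. The part of chromosomal position or of the hybrid background in these values was not tested. Dcst1 and Dcst2, adjacent genes on chromosome 3 whose products act together in fusion, read -0.04 and 0.21 with overlapping groups (SE 0.14 and 0.12). Dcst2 is read by a single dim probe set, at 5.16 ± 0.12 and 5.37 ± 0.21, and it was the 1 member of the 33 that lay under the value below which 40% of all probe sets fall (5.56).

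**Figure D2:**
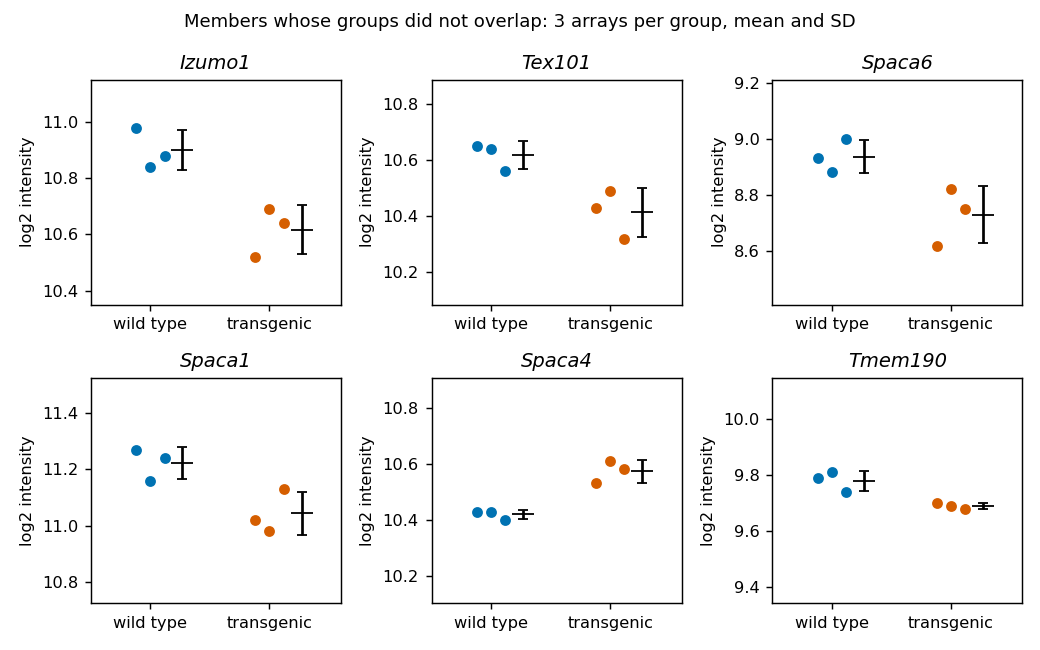
Log2 intensity (y axis, 0.8 units in every panel) of the 6 member genes whose genotypes did not overlap, with 1 point per array and the mean and SD of 3 arrays beside them. Izumo1 shows the widest gap between groups, Spaca4 is the gene that is higher in transgenic testis, and none passed the adjusted test.

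Among genes for sperm maturation and passage through the oviduct, Tex101 had the smallest p. TEX101 is a GPI-anchored germ cell protein needed for ADAM3 to reach the sperm surface. It read 10.65, 10.64 and 10.56 in wild type and 10.43, 10.49 and 10.32 in transgenic testis. The groups were apart by 0.07, and the log2 difference was -0.20 (SE 0.09, limma adjusted p = 0.743). Ly6k, which works with TEX101 in this step, read 10.81, 11.02 and 10.97 in wild type and 11.09, 10.97 and 11.07 in transgenic testis. These groups overlapped, with a log2 difference of 0.11 (SE 0.09, limma adjusted p = 0.935). It was 0.05 without wild type replicate 1 and 0.15 without wild type replicate 2. Prss37, a protease-like protein of the same pathway, read 0.07 (SE 0.09), so the 3 measured genes of this step did not share a direction.

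Among genes that build the acrosome and the sperm head, Spaca1, a membrane protein that shapes the acrosome, read 11.27, 11.16 and 11.24 in wild type and 11.02, 10.98 and 11.13 in transgenic testis. The groups were apart by 0.03, and the log2 difference was -0.18 (SE 0.09, limma adjusted p = 0.796). Pick1, a PDZ protein of vesicle traffic from the Golgi, read 8.37, 8.46 and 8.57 in wild type and 8.58, 8.73 and 8.56 in transgenic testis. These groups overlapped, with a log2 difference of 0.16 (SE 0.10, limma adjusted p = 0.870). It was 0.10 without transgenic replicate 2 and 0.21 without wild type replicate 3. Gopc, its Golgi-associated partner, had the widest interval of the members, -0.35 to 0.40, with a difference of 0.03 and SDs of 0.30 and 0.24. The actin-like genes Actl7a and Actl7b, neighbours on chromosome 4, read 0.05 and -0.04 (SE 0.08 and 0.09). Sun5, which anchors the tail to the head, read 10.22 ± 0.07 and 10.22 ± 0.15.

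Among the acrosomal enzymes and matrix proteins, 8 of 9 differences were below 0, where 42.1% of all genes were. None had an unadjusted limma p under 0.05. These genes lay at means of -0.07, 0.02 and -0.03 from their gene means on transgenic replicates 1, 2 and 3. On wild type replicates 1, 2 and 3 they lay at 0.03, 0.01 and 0.03, so the count leaned on transgenic replicate 1. Acr, the protease acrosin, read 11.39 ± 0.04 and 11.36 ± 0.06, and its partner Acrbp, the proacrosin-binding protein, 11.09 ± 0.01 and 11.11 ± 0.04 (log2, SD, n = 3). Zp3r, a matrix protein with affinity for the zona, had the smallest p of this group. It read 9.87, 10.03 and 9.97 in wild type and 9.77, 9.87 and 9.83 in transgenic testis, where the lowest wild-type and the highest transgenic value were equal (log2 difference -0.13, SE 0.09, limma adjusted p = 0.898). Spaca7, a protein released when the acrosome opens, read 10.09, 9.94 and 10.01 in wild type and 9.89, 10.06 and 9.80 in transgenic testis. Its groups overlapped, with a log2 difference of -0.10 (SE 0.10, limma adjusted p = 0.956). That difference was -0.06 without wild type replicate 1, -0.17 without transgenic replicate 2 and -0.04 without transgenic replicate 3. The differences of the acrosomal antigen Acrv1, the equatorial segment protein Spesp1, the convertase Pcsk4, the membrane-anchored protease Prss21 and the acrosomal protein Dkkl1 lay between -0.07 and -0.01.

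Of the 5 genes grouped under passing the cumulus and binding the zona, all differences were below 0, where 42.1% of all genes were. None had an unadjusted limma p under 0.05. These genes lay at means of -0.08, 0.04 and -0.07 from their gene means on transgenic replicates 1, 2 and 3. On wild type replicates 1, 2 and 3 they lay at 0.0013, 0.08 and 0.03. Spaca4, also a protein of zona binding, was grouped with the fusion genes and read 0.15 (SE 0.08). Spam1, the hyaluronidase PH-20, read 8.91, 9.17 and 9.04 in wild type and 8.81, 9.02 and 8.74 in transgenic testis. These groups overlapped, with a log2 difference of -0.18 (SE 0.11, limma adjusted p = 0.861). It was -0.12 without wild type replicate 2 and -0.265 without transgenic replicate 2. Hyal5, a second sperm hyaluronidase and the gene next to Spam1 on chromosome 6, read -0.05 (SE 0.12). Zpbp, a zona-binding protein that also shapes the acrosome, read 11.70, 11.62 and 11.69 in wild type and 11.57, 11.59 and 11.66 in transgenic testis, with overlapping groups (log2 difference -0.06, SE 0.08, limma adjusted p = 0.968). Zpbp2 read -0.02 and Crisp2, a cysteine-rich protein of acrosome and tail, -0.04.

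The lysozyme-like genes encode relatives of lysozyme found in sperm, and 1 array set the direction of a pair of them. Lyzl6 read 11.44, 11.38 and 11.32 in wild type and 11.07, 11.47 and 11.30 in transgenic testis. Transgenic replicate 1 was the lowest of the 6 arrays and replicate 2 the highest (log2 difference -0.10, SE 0.11, limma adjusted p = 0.962). Lyzl1 had the same lowest and highest array, with 10.58, 10.46 and 10.55 in wild type and 10.21, 10.64 and 10.46 in transgenic testis (log2 difference -0.09, SE 0.12, limma adjusted p = 0.967). Without transgenic replicate 1 the sign of both turned, to 0.005 and 0.02, and without transgenic replicate 2 both read -0.20. Lyzl4 read 0.06 and Spaca3, a lysozyme-like protein of the acrosome, -0.02 (SE 0.10 and 0.09).

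Across the members, transgenic replicate 1 was the lowest of the 6 arrays in 11 of 33 genes, where it was in 10.3% of all genes. On it the members lay at a mean of -0.07 from their gene means, and those of the lysozyme-like genes at -0.17. Transgenic replicate 2 was the highest of the 6 arrays in 10 of 33, where it was in 15.5% of all genes, and there the members lay at a mean of 0.03. The 3 transgenic arrays thus spanned 0.10 in the mean of the members, where the genotype means differed by -0.04. Wild type replicate 2 was the highest array in 9 of 33 members and in 25.4% of all genes. The round spermatid markers lay at means of -0.04, 0.08 and -0.0092 from their gene means on wild type replicates 1, 2 and 3, and of -0.04, 0.06 and -0.05 on transgenic replicates 1, 2 and 3. The spermatocyte markers lay at 0.03, 0.05 and 0.07 and at -0.06, 0.05 and -0.14 on the same arrays. The elongating spermatid markers stayed between -0.02 and 0.03 on all 6. The round spermatid markers were thus as low on wild type replicate 1 as on transgenic replicate 1, and these and the spermatocyte markers were lowest on transgenic replicate 3. The part of cell makeup in these shifts was not tested.

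**Figure D3:**
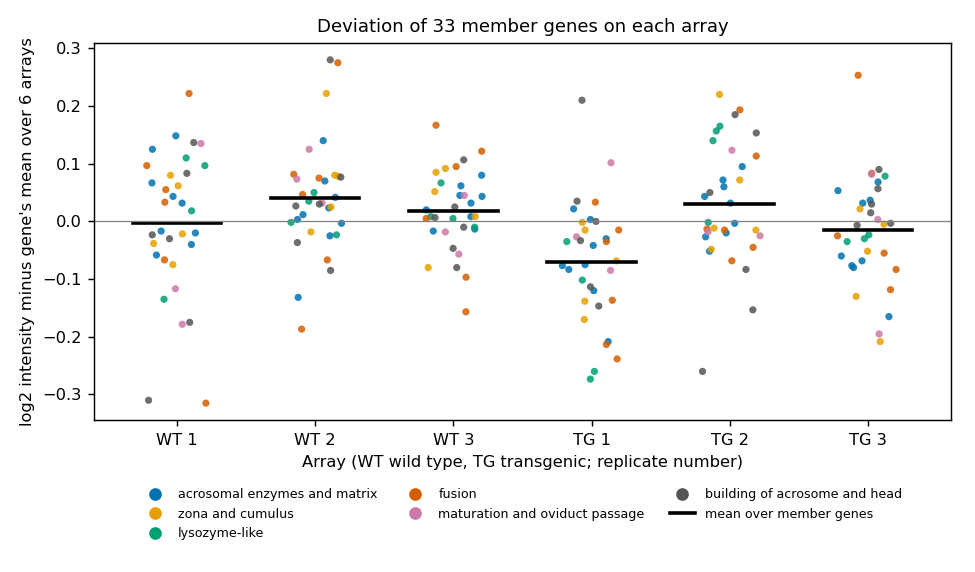
Log2 intensity of each of the 33 member genes minus its own mean over the 6 arrays (y axis), by array (x axis), with 1 point per gene coloured by role and a bar for the mean over genes. The mean is lowest on transgenic replicate 1 (-0.07) and highest on wild type replicate 2 (0.04), with transgenic replicate 2 (0.03) close to the latter.

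With the Gapdh difference of each array as a covariate, 0 member genes passed (limma) and several estimates moved by more than 1.5 times, in both directions. That difference was 0.06 to 0.16 on wild-type and 0.21 to 0.33 on transgenic arrays, so this fit cannot separate it from genotype. The SE of Izumo1 rose from 0.09 to 0.17. The estimates are thus not values corrected for RNA integrity. Farther from 0 were Izumo1 at -0.46 (SE 0.17), Spaca1 at -0.34 (SE 0.16), Lyzl1 at -0.34, Spaca6 at -0.33, Lyzl6 at -0.29, Zpbp at -0.19, Ly6k at 0.25 and Pick1 at 0.24. Nearer to 0 were Tex101 at -0.12 (SE 0.17) and Zp3r at -0.07, and Spam1 turned to 0.06 (SE 0.20). Among the further genes, Plcz1 read -0.53 (SE 0.17, limma adjusted p = 0.374) and Snap23 -0.29, and Atg7 turned to 0.10 (SE 0.24). At an unadjusted limma p under 0.05 there was then 1 member gene, against 2 without the covariate.

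In 11 member genes more than 1 probe set carried the gene. Of their 14 dimmer probe sets, 7 had the sign of the brightest and 7 the opposite sign. All 3 probe sets of Lyzl6 read below 0, between -0.11 and -0.04, and both of Pick1 read above 0, at 0.16 and 0.07. Gopc, Spaca3, Spaca6, Spesp1, Zpbp and Zpbp2 had probe sets of both signs. None of the 14 passed. Izumo1, Tex101, Spaca1, Spaca4 and Tmem190 were each read by 1 probe set, so their values have no second reading.

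**Figure D4:**
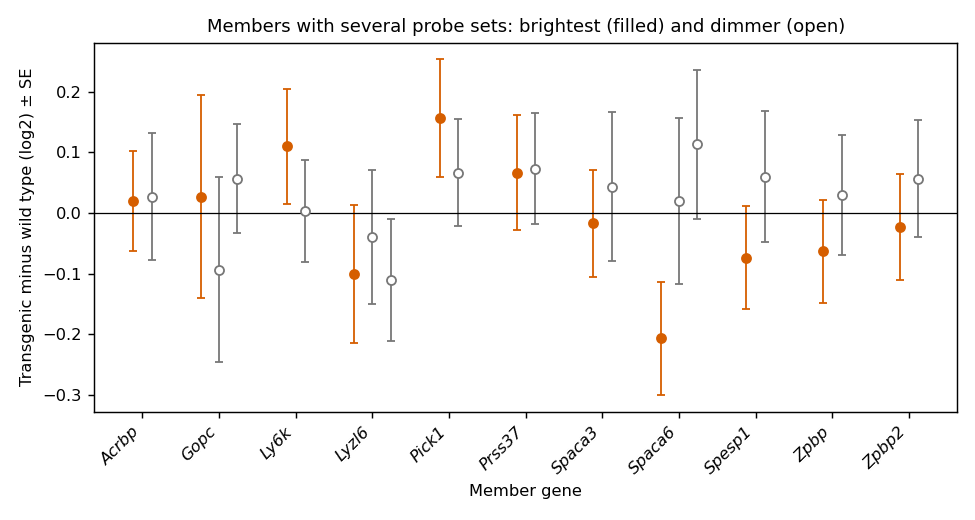
Log2 difference, transgenic minus wild type, with its SE from limma (y axis), for each probe set of the 11 member genes that have several (x axis), the brightest filled and the dimmer ones open. Spaca6 shows the widest disagreement, from -0.21 with the brightest to 0.11 with the dimmest probe set.

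Further genes of the same pathway gave no calls either. Of 19 measured genes for building the acrosome, 0 passed in either direction (limma), 1 had an unadjusted p under 0.05 and the median difference was 0.02. The smallest p belonged to Atg7, an autophagy enzyme needed for acrosome formation, at -0.39 (SE 0.15, limma adjusted p = 0.656, groups overlapping). Golga3, a Golgi matrix protein, read -0.17 (SE 0.09, limma adjusted p = 0.824). Of 21 measured genes for acrosomal exocytosis, 0 passed and 0 had an unadjusted p under 0.05 (limma), with a median of 0.01. The smallest p there were those of the phospholipase gene Plb1, at 0.18 (SE 0.09, limma adjusted p = 0.793), and of the SNARE gene Snap23, at -0.15 (SE 0.09, limma adjusted p = 0.867). Snap23 read -0.09 without transgenic replicate 1 and -0.19 without transgenic replicate 3. Averaged over all probe sets of each gene, Atg7 read -0.12, Golga3 -0.05 and Plb1 0.09, nearer to 0, and Snap23 -0.23, farther from it.

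Of 23 measured partners of sperm-egg interaction, IZUMO relatives, ADAM proteins and their chaperones among them, 0 passed and 3 had an unadjusted limma p under 0.05, with a median of 0. Rnase10, a secreted ribonuclease-like protein of the epididymis that keeps ADAM3 on sperm, came closest. It read 4.80, 4.72 and 5.07 in wild type and 4.20, 4.27 and 4.31 in transgenic testis. The groups were apart by 0.41, and the log2 difference was -0.60 (SE 0.11, limma adjusted p = 0.0647). It passed under 5 of the 13 alternatives that measured it, with adjusted p from 0.0191 to 0.354 over the 13. All its values lay under 5.56, below which 40% of probe sets fall, and there is no detection call. The 5 epididymal markers read between 3.57 and 6.91 and differed by 0.04 to 0.09, each by less than its SE. Lcn5, Lcn8, Spint4 and Defb42 among them also had means under 5.56, so no direction is read from these markers. The part of epididymal tissue in the Rnase10 values was not tested. Plcz1, the sperm phospholipase that starts calcium oscillations in the egg, read 11.57, 11.46 and 11.44 in wild type and 11.13, 11.21 and 11.42 in transgenic testis. The groups were apart by 0.02, and the log2 difference was -0.24 (SE 0.10, limma adjusted p = 0.734).

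Markers of other testis cells were read in the same fit. Of the 6 spermatocyte markers 5 were below 0 with a median of -0.06, and Sycp1 was the lowest at -0.41 (limma adjusted p = 0.541). Of the 4 endothelial markers all were above 0, with a median of 0.27, and none passed the test. The groups did not overlap in 3 of them, Cdh5, Tek and Emcn, where 12.5% of all genes were of this kind. These 3 are dim, with means of 5.305, 4.53 and 4.61, under the value below which 40% of probe sets fall (5.56). The summed log2 level of the 4 endothelial markers was 19.46 to 19.95 on wild-type and 20.77 to 21.01 on transgenic arrays. Over the 6 spermatocyte markers it was 64.06 to 64.30 and 63.07 to 64.22. Hsd3b1, a steroid enzyme of Leydig cells, was the 1 marker of the 51 measured that passed, at 1.48 (SE 0.13, limma adjusted p = 0.00109). The medians of the spermatogonial, round spermatid, elongating spermatid, Sertoli and Leydig markers lay between 0.0017 and 0.02. Peritubular myoid markers were below 0 in 4 of 4, with a median of -0.10, and macrophage markers above 0 in 3 of 4, with a median of 0.15, and none of these passed. The part of such shifts in the members' values was not tested.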

How the data were processed

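Total RNA of 6 testis samples was labelled and hybridised to Affymetrix whole-genome mouse arrays, 1 array per sample, per the labels' protocols. The authors deposited 1 log2 intensity for each probe set and array, made with RMA and the affy package, per the submitters' processing notes; versions and parameters are not given in the sources used here. RMA gives the arrays a near-common distribution and no detection call, so a change common to most transcripts is lost and a low value does not show absence. Of 45101 probe sets, 64 controls were left out and 45037 tested, with no filter on dim ones. Gene names came from the platform annotation (34945 probe sets with 1 gene, 932 with several, 9160 with none here), updated through a RefSeq gene table of GRCm38.p6.

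The genotypes were tested against each other, two-sided, by lmFit and eBayes of limma 3.58.1 (R 4.3.3), with Benjamini-Hochberg adjustment over all 45037 probe sets and a threshold of 0.05. The fit was run on simulated data with independent errors and planted changes larger than any member difference. That run does not test differences of the members' size. The precision is limited by 3 arrays per group, which the submitters call independent biological replicates. The members and gene lists were chosen with earlier results of these data known. All members are named; array values are given for the 2 of smallest p in each role and for members whose groups did not overlap, and from each further list the members past the threshold or else the 2 of smallest p. Sycp1, Hsd3b1 and the dimmer probe sets were named after their values were seen. Alternatives were 8 changes of normalization, filter, probe set choice or model, and leaving out each of 6 arrays. Motifs were counted in RefSeq windows of 250 bases before each start.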

Additional observations from a re-analysis of the deposited data

How the results depend on the processing

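The counts of called member genes, member probe sets, acrosome biogenesis partners and exocytosis genes were 0 under each of the 14 alternatives, where they could be taken, with 1 to 5 members at an unadjusted limma p under 0.05. The median difference of the members, -0.04 in the main analysis, ran from -0.06 to -0.02, moving in each case by less than the within-group SD of the members' median per array (0.03). The count of sperm-egg partners called went from 0 to 1 with quantile normalization again, median centring, the mean over a gene's probe sets, trend and robust eBayes, and without wild type replicate 2, so from 0 to 1 over the arrays left out. It was Rnase10 each time. The count of all probe sets called was 200 in the main analysis, 306 with trend and robust eBayes, 117 with the replicate block and 18 with the Gapdh difference as a covariate, and between 70 and 429 when 1 array was left out. Signs turned for Spam1 (0.057) and Atg7 (0.10) with the Gapdh covariate, for Lyzl1 (from -0.20 to 0.02 when 1 array was left out) and Lyzl6 (from -0.20 to 0.005) without transgenic replicate 1, and for Spaca6 (0.02) without probe sets named _x_at, _s_at or _a_at, where another of its probe sets takes over; the cause of the others was not tested. The replicate numbers do not pair the samples: same-numbered arrays had correlations of -0.32, -0.07 and -0.01 in their deviations from the group means, and the replicate block called 0 member genes. With 3 arrays per group, the members' 95% intervals have a median half-width of 0.21 on the log2 scale, so differences much smaller than this could not be seen. These intervals are not adjusted for the number of probe sets, and the adjusted test left larger differences uncalled. Izumo1 at -0.28 had a limma adjusted p of 0.476, and Rnase10 at -0.60 had one of 0.0647.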
